A study of Mus musculus with 12 samples.

Results

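The Hippo core kinases and adaptors comprise 8 genes, Stk3, Stk4, Sav1, Nf2, Lats1, Lats2, Mob1a and Mob1b, chosen by symbol from the pathway. All 8 were listed at both ages among 25316 genes listed at either age, and all 8 passed the filter on low counts. Their transcripts were measured by RNA sequencing in primary podocytes, the epithelial cells that wrap the glomerular capillaries of the kidney, from diabetic mice with or without Nsd2, a histone H3 lysine 36 methyltransferase. The knockout groups came from Cre+/Nsd2fl/fl mice, in which the labels place the deletion in podocytes, at 28 and at 20 weeks of age. The control groups came from Cre-/Nsd2fl/fl mice of the same ages, so both genotypes carried the floxed alleles. Diabetic injury was induced in every mouse by HFD/STZ, that is, a fat-rich diet combined with the beta-cell toxin streptozotocin, and no group without diabetes is part of the design. Each of the 4 groups held 3 libraries, 12 in all. The sources used here do not name the promoter that drives Cre. Whether the libraries within a group are separate mice is not stated, so p-values measure only the spread between libraries, and that spread may be technical.

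In the Hippo pathway the MST kinases, encoded by Stk4 (MST1) and Stk3 (MST2), bind the adaptor SAV1 and phosphorylate the LATS kinases and their MOB1 coactivators. Merlin, the product of Nf2, brings LATS to the cell cortex, where it is activated. Active LATS phosphorylates the coactivators YAP and TAZ, which keeps them out of the nucleus and away from TEAD, the DNA-binding proteins they work through. In podocytes YAP supports survival and the injury response, and Lats2 and Nf2 are themselves known targets of YAP in other cells, which forms a negative feedback loop. Much of the pathway is controlled by phosphorylation, which transcript levels do not measure.

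By GENCODE M21 annotation of the GRCm38 build, the genes lie on 8 different chromosomes. Stk3 is on chromosome 15 at 34875496 to 35178921 (minus strand), Stk4 on chromosome 2 at 164070322 to 164155524 (plus) and Sav1 on chromosome 12 at 69965012 to 69987002 (minus). Nf2 is on chromosome 11 at 4765845 to 4849536 (minus), Lats1 on chromosome 10 at 7681214 to 7716460 (plus) and Lats2 on chromosome 14 at 57689662 to 57758388 (minus). Mob1a is on chromosome 6 at 83326016 to 83343776 (plus) and Mob1b on chromosome 5 at 88720855 to 88764220 (plus). Sav1 shares 1336 exon bases with Atl1 on the opposite strand, and Lats2 shares 2955 with Gm49361 on the same strand. Since the strand setting of the counting is unknown, reads in the bases shared with Atl1 may have been assigned differently from reads elsewhere in Sav1. Strand cannot separate Lats2 from Gm49361, and how the counting treated reads in their shared bases is also unknown.

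Promoter sequence is shown for the kinase paralogs Lats2 and Lats1, whose ratio did not overlap between genotypes at either age, and for Sav1, the core gene with the smallest p at 28 weeks. Each window holds 250 bases before and 50 after the gene's start in RefSeq (GRCm38.p6) and is written along the gene's strand, 5′ to 3′. The Lats2 window, the upstream one of its 2, is chr14:57746074-57746373 (minus strand), the Lats1 window chr10:7680959-7681258 (plus) and the Sav1 window chr12:69986953-69987252 (minus). Capitals mark GGAATG or its reverse complement CATTCC, the core of the TEAD recognition sequence, searched on both strands.
Lats2: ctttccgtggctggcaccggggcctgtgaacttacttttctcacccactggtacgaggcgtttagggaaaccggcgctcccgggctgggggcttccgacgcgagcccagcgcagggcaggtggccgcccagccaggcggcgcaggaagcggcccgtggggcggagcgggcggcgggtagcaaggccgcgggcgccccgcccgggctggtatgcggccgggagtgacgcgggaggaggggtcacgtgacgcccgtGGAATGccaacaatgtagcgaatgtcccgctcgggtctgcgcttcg
Lats1: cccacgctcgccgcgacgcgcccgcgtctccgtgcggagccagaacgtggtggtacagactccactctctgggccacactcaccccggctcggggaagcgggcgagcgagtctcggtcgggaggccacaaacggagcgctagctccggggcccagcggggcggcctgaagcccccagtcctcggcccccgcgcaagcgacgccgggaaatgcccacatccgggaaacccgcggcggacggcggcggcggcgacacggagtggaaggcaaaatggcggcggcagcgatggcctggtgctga
Sav1: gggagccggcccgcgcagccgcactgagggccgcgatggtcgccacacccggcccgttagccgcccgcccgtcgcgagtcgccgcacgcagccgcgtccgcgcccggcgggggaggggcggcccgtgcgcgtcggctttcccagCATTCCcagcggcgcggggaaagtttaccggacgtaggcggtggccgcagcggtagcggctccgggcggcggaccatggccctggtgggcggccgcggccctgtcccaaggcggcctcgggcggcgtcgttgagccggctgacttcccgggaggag
The Lats2 and Sav1 windows hold 1 match each and the Lats1 window holds none. RefSeq gave 9 windows for 7 of the 8 genes, and 3 of the 9 held the motif, the third being that of Mob1a. Of 32851 windows of 300 bases, 4817 (14.7%) held it. A match describes the letters of a window and is not a measurement of binding.

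Totals ran from 31405349 to 38989180 counts per library, and the core genes received 672 to 9543 counts each per library. Nsd2 averaged 37.8 ± 4.41 normalised CPM (reads scaled to a common library size) in knockouts and 81.6 ± 4.96 CPM in controls at 28 weeks, which is -1.11 on the log2 scale (SE 0.13, edgeR adjusted p = 0.00431, 3 libraries a group). At 20 weeks it averaged 43.6 ± 8.91 CPM in knockouts and 79.9 ± 13.8 CPM in controls (log2 -0.88, SE 0.21, adjusted p = 0.0402), and that call ended when any library other than knockout 1 was left out (adjusted p of 0.0729 to 0.164). Nphs1, which encodes the slit diaphragm protein nephrin, was low in every library. It was at 0.914 to 3.49 CPM in knockouts and 8.39 to 15.2 CPM in controls at 28 weeks. At 20 weeks it was at 1.72 to 7.35 against 1.45 to 7.49 CPM. The summed level of 10 smooth muscle, pericyte and mesangial markers was 6957 to 15668 CPM in knockouts and 2849 to 3167 CPM in controls at 28 weeks, and 9640 to 13545 against 4247 to 4801 CPM at 20 weeks. That of 10 simple epithelial markers was 217 to 7142 CPM in knockouts and 4289 to 6746 CPM in controls at 28 weeks, where knockout library 1 held the 7142 CPM. At 20 weeks it was 443 to 2257 CPM in knockouts and 2823 to 5537 CPM in controls. The summed level of 12 podocyte markers was 867 to 2384 CPM in knockouts and 1452 to 2265 CPM in controls at 28 weeks, and 2122 to 2757 against 983 to 1589 CPM at 20 weeks. Of these 12 markers, 3 fell at 28 weeks (11.9% of all genes) and none rose (9.33%). At 20 weeks 7 rose (4.79% of all genes) and none fell (5.13%). The summed level of 10 leukocyte markers was 602 to 826 CPM in knockouts and 68.7 to 84.7 CPM in controls at 28 weeks, and 243 to 428 against 68.8 to 339 CPM at 20 weeks. That of 10 distal tubule and collecting duct markers was 5.80 to 371 CPM in knockouts and 245 to 621 CPM in controls at 28 weeks. At 20 weeks it was 10.6 to 18.8 against 308 to 705 CPM. Mal alone made up most of this sum in every library. It was at 3.89 to 363 CPM in knockouts and 198 to 586 CPM in controls at 28 weeks. At 20 weeks Mal was at 8.65 to 14.4 against 290 to 687 CPM. Umod reached at most 1.29 CPM and Slc12a3 at most 4.23 CPM in any library. No podocyte, smooth muscle or simple epithelial marker was at 0 in any library, whereas 0 to 2 of the leukocyte markers and 1 to 7 of the distal tubule and collecting duct markers were. In such bulk RNA, fewer cells of a type and less RNA per cell cannot be told apart, and the part of cell makeup in the values below was not tested. The 28-week control libraries 2 and 3 resembled each other most, with a biological coefficient of variation of 0.0472, where the remaining 11 pairs within a group gave 0.225 to 0.413. Sampling noise alone would give a mean chi-square of 1 per gene and theirs was 4.66, so they differ by more than sampling noise. That value cannot tell whether they came from 1 library sequenced more than once or from separate mice. Control libraries 2 and 3 were counted separately here, and with both summed into 1 library 1299 genes passed at 28 weeks, in place of 3183.

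At 28 weeks no core gene differed between knockout and control podocytes at an adjusted p below 0.05, whereas 21.2% of the 15011 genes tested did (9.33% higher in knockouts and 11.9% lower). The estimates pointed in opposite directions within the cassette. Sav1, Stk3 and Mob1a were higher on average in knockouts, and Lats1, Mob1b, Nf2 and Stk4 were lower, while Lats2 was level. At an unadjusted p below 0.05 stood 3 of the 8 (Sav1, Lats1 and Nf2), against 34.8% of all genes. The median size of the log2 fold change was 0.34 over the 8 genes and 0.37 over all genes tested.

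The upstream kinase Stk3 (MST2) was at 97.4, 82.6 and 59.7 CPM in the 28-week knockouts, against 43.5, 61.7 and 65.8 CPM in controls. Knockout libraries 1 and 2 lay above every control, and knockout library 3 lay among them. Stk3 had a log2 fold change of 0.49 (SE 0.23, 95% confidence interval -0.07 to 1.05, edgeR adjusted p = 0.196). Its paralog Stk4 (MST1) held 104, 113 and 122 CPM in knockouts and 128, 128 and 131 CPM in controls. All knockout libraries lay below all controls, by a small margin, and the control values were close together. The log2 fold change of Stk4 was -0.19 (SE 0.10, interval -0.44 to 0.06, adjusted p = 0.257).

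Sav1, the adaptor that joins the MST kinases into dimers and links them to LATS, was at 95.6, 120.3 and 112 CPM in the 28-week knockouts and at 89.0, 79.5 and 84.6 CPM in controls. The groups did not overlap, and knockout library 1 stood nearest the controls. Sav1 had the smallest p of the 8 genes, with a log2 fold change of 0.37 (SE 0.12, interval 0.08 to 0.67, adjusted p = 0.0786). It passed the threshold without knockout library 1 (log2 0.45, adjusted p = 0.0321). It also passed with DESeq2 (0.38, adjusted p = 0.0175) and with upper-quartile scaling (0.42, adjusted p = 0.0440). Once GC content and length were corrected for, Sav1 was at 0.10 (SE 0.24, adjusted p = 0.791).

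Nf2, which encodes the scaffold merlin upstream of LATS, was at 75.5, 84.7 and 74.1 CPM in the 28-week knockouts, against 109, 88.2 and 92.9 CPM in controls. The knockouts lay below the controls without overlap, although knockout library 2 came close to control library 2. For Nf2 this gave a log2 fold change of -0.31 (SE 0.12, interval -0.60 to -0.01, adjusted p = 0.133), and -0.02 (adjusted p = 0.920) with GC content and length corrected for.

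Of the LATS kinases, which phosphorylate YAP and TAZ, Lats1 was at 56.8, 67.3 and 81.3 CPM in the 28-week knockouts, against 105, 84.8 and 90.1 CPM in controls. The groups did not overlap. Lats1 had a log2 fold change of -0.44 (SE 0.16, interval -0.84 to -0.05, adjusted p = 0.107), and without knockout library 3 it was -0.63 and passed (adjusted p = 0.0340). Lats2 was at 103, 144 and 179 CPM in knockouts and 189, 118 and 123 CPM in controls. Both groups were wide and overlapped over most of their ranges, with library 1 at the low end of the knockouts and at the high end of the controls. The log2 fold change of Lats2 was -0.01 (SE 0.26, interval -0.65 to 0.62, adjusted p = 0.983). With 3 libraries a group, a difference of any size inside that interval, in either direction, is compatible with the data.

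The MOB1 proteins bind LATS and are needed for its full activity. Mob1a was at 209 CPM in knockout library 1 and 262 and 261 CPM in the other 28-week knockouts, against 223, 211 and 216 CPM in controls. Library 1 lay just below the controls and the other knockouts above them, for a log2 fold change of 0.17 (SE 0.13, interval -0.14 to 0.48, adjusted p = 0.400). Mob1b was the least abundant core transcript in CPM, at 24.3, 26.3 and 34.2 CPM in knockouts and 31.4, 41.2 and 43.0 CPM in controls. The groups overlapped only through knockout library 3 and control library 1, and the log2 fold change was -0.45 (SE 0.19, interval -0.91 to 0.01, adjusted p = 0.154). Over the 8 genes, 4 had no overlap between genotypes at 28 weeks (Sav1 higher in knockouts, and Stk4, Lats1 and Nf2 lower), against 42.2% of all genes tested (19.3% with knockouts higher and 22.8% lower). With 8 genes, that share lies near the background.

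**Figure D1:**
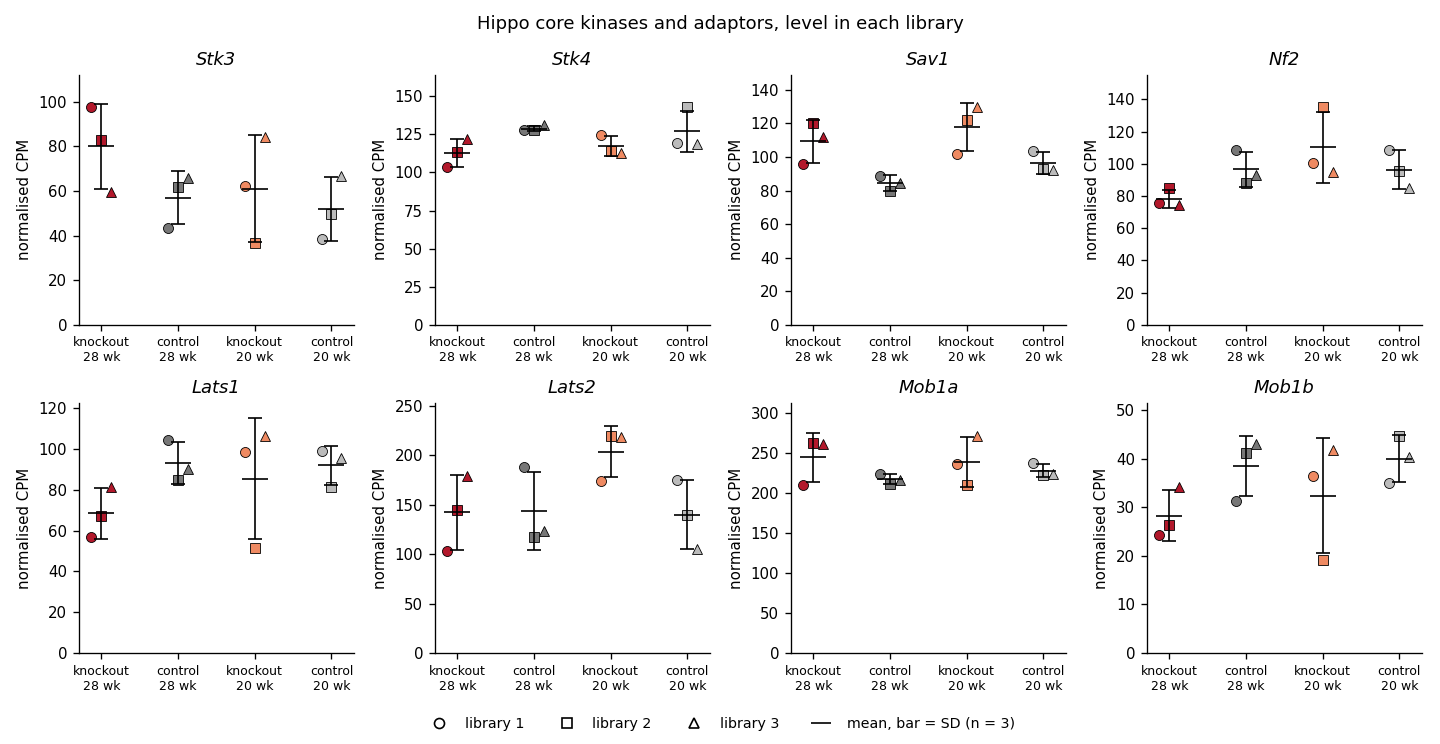
Normalised CPM of the 8 Hippo core genes in each library, with a panel for each gene, the 4 groups along the horizontal axis and the level on the vertical axis from 0. Points are libraries 1 to 3, the long line is the mean and the bar the SD (n = 3). Sav1 at 28 weeks ran from 95.6 to 120.3 CPM in knockouts and from 79.5 to 89.0 CPM in controls, and Lats1, Mob1b and Stk3 in knockout library 2 at 20 weeks lay below the other libraries of that group.

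At 20 weeks no core gene passed either, against 9.92% of the 14853 genes tested (4.79% higher in knockouts and 5.13% lower), and no core gene was free of overlap between the genotypes (32.2% of all genes were, 15.5% with knockouts higher and 16.7% lower). Lats2 had the largest estimate. It was at 173, 219.9 and 218 CPM in knockouts and at 175, 139.8 and 105 CPM in controls. Knockout libraries 2 and 3 lay above every control, and knockout library 1 fell just below control library 1. The log2 fold change was 0.54 (SE 0.22, interval 0.05 to 1.04, adjusted p = 0.165), the only one of the 8 at an unadjusted p below 0.05, where 25% of all genes stood.

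Sav1 pointed the same way at 20 weeks as at 28 weeks, with 102, 122 and 129.6 CPM in knockouts and 104, 92.9 and 92.0 CPM in controls. Knockout library 1 lay inside the control range and the other knockouts above it. Its log2 fold change was 0.29 (SE 0.16, interval -0.07 to 0.66, adjusted p = 0.310). Nf2 had a positive estimate at this age, with 101, 135 and 94.7 CPM in knockouts against 109, 95.6 and 84.9 CPM in controls. Only knockout library 2 lay above the controls, and the log2 fold change of 0.19 (SE 0.19, adjusted p = 0.611) was 0.03 without it.

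Lats1 was at 98.3, 51.4 and 107 CPM in the 20-week knockouts, against 99.1, 81.1 and 95.5 CPM in controls. Knockout library 2 was far below the rest, and the log2 fold change of -0.11 (SE 0.27, adjusted p = 0.861) was 0.16 without it. Mob1b showed the same library standing apart, at 36.4, 19.1 and 41.8 CPM in knockouts against 35.0, 44.8 and 40.4 CPM in controls. Its log2 fold change was -0.30 (SE 0.28, adjusted p = 0.580), and -0.03 without knockout library 2.

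Stk3 was at 62.4, 36.5 and 84.2 CPM in the 20-week knockouts and at 38.4, 49.8 and 66.9 CPM in controls. The knockout range enclosed the control range, and the log2 fold change of 0.24 (SE 0.32, adjusted p = 0.721) was 0.51 without knockout library 2 and -0.04 without knockout library 3. Stk4 ran from 113 to 125 CPM in knockouts and from 118 to 143 CPM in controls (log2 -0.11, SE 0.15, adjusted p = 0.716). Mob1a ran from 209 to 271 CPM in knockouts and from 223 to 237 CPM in controls (log2 0.07, SE 0.16, adjusted p = 0.846). Over both ages, the 95% intervals of the 8 genes in these fits reached no further than 0.515-fold and 2.07-fold. Changes beyond those sizes lie outside every such interval. These limits do not cover the estimates corrected for GC content and length that are given below.

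Libraries differed in how the levels of all genes varied with GC content and transcript length, and the part of these trends in the core genes' values was not tested. Genes under 40% GC stood at a median log2 deviation of -0.70 from the 12-library mean in knockout library 2 at 20 weeks, and those over 60% GC at 0.29. The core genes low in that library, Stk3 (38.4% GC), Mob1b (37.9%) and Lats1 (43.0%), are GC-poor, whereas Nf2 (53.5%) and Lats2 (52.2%), which were high in it, have the most GC of the 8. Sav1 departs from this order, since at 40% GC it was at 122 CPM in that library, above every 20-week control. At 28 weeks genes over 8000 bases stood at -0.41 in knockout library 1 and at 0.29 in control library 1. The median log2 fold change of all genes between genotypes at that age ran from 0.28 for genes under 1500 bases to -0.20 for genes over 8000 bases.

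With an offset for GC content and length in each library, a correction added after seeing the data, no core gene passed at either age. At 28 weeks the correction brought Nf2 (SE 0.13) and Sav1 close to 0, as given above, and took Lats2 to 0.24 (SE 0.15, adjusted p = 0.304). The SE of Sav1 was 0.24 with the correction and 0.12 without it, so its corrected estimate is the less certain. The lengths used were those behind the FPKM values, which for Sav1, Mob1b and Stk3 differ from the GENCODE exon lengths, as given below. Stk3 was 0.56 (SE 0.19, adjusted p = 0.0769), Mob1b -0.68 (SE 0.25, adjusted p = 0.0982) and Lats1 -0.30 (SE 0.13, adjusted p = 0.136) under it. At 20 weeks the estimates moved by at most 0.08, and Lats2 was 0.48 (SE 0.21, adjusted p = 0.165).

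**Figure D2:**
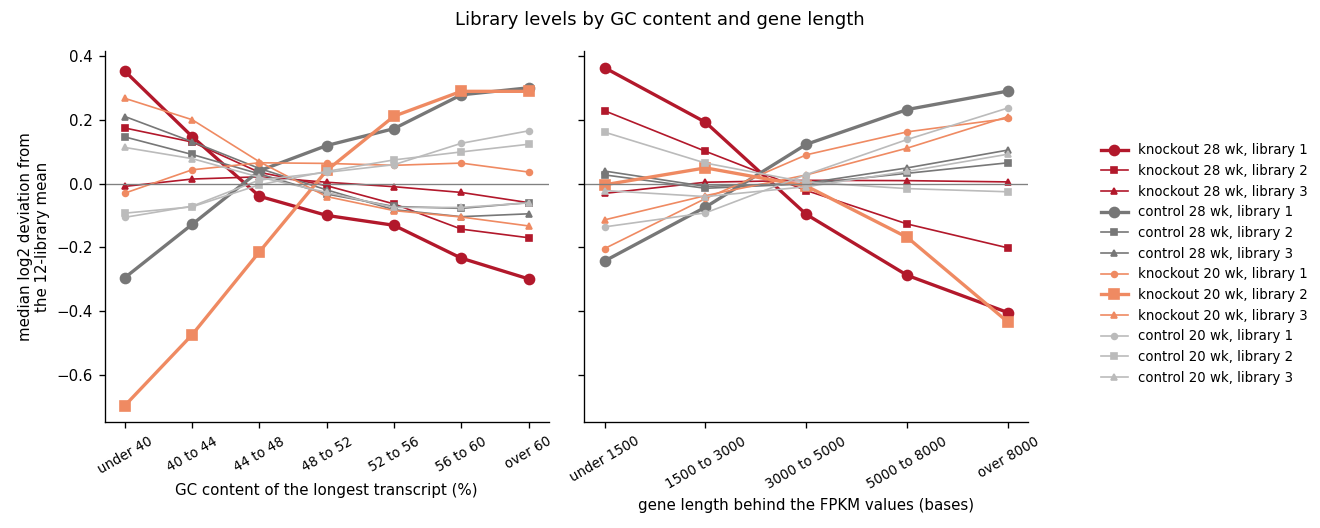
Median log2 deviation of all genes in a bin from their 12-library mean (vertical axis), by GC content in percent (left) and by the length behind the FPKM values in bases (right), with a line for each library. The heavy lines are knockout library 1 and control library 1 at 28 weeks and knockout library 2 at 20 weeks, which runs from -0.70 under 40% GC to 0.29 over 60% GC.

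**Figure D3:**
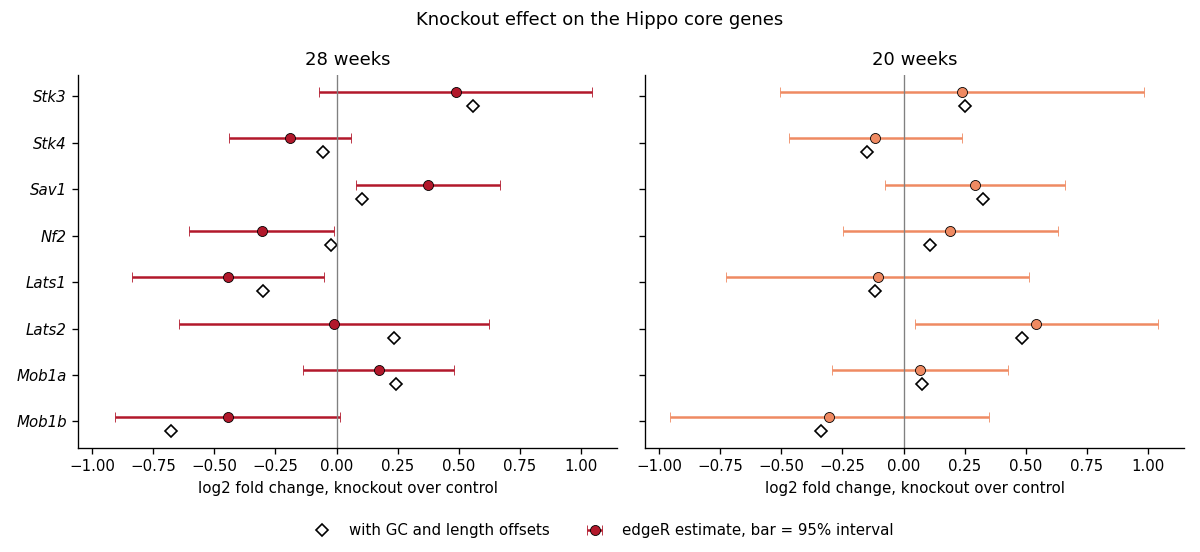
Log2 fold change of knockout over control podocytes for the 8 core genes at 28 weeks (left) and 20 weeks (right). Filled points with bars are the edgeR estimates with 95% confidence intervals and open diamonds the estimates with GC and length offsets. At 28 weeks the diamonds of Sav1 (0.10) and Nf2 (-0.02) lie near 0, and that of Mob1b (-0.68) lies further from it than the uncorrected point.

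The next comparison asks whether the knockout effect on the core changed between the ages. All 12 libraries entered 1 edgeR model, in which age coincides with the deposited table. The effect on Nf2 differed by -0.48 on the log2 scale, 28 minus 20 weeks (SE 0.21, interval -0.95 to -0.01, unadjusted p = 0.0452, adjusted p = 0.542), and the effect on Lats2 by -0.53 (SE 0.36, adjusted p = 0.628), which ran from -0.74 without knockout library 3 at 28 weeks to -0.31 without control library 1 at 28 weeks. The other 6 genes differed by between -0.34 and 0.23, with adjusted p of 0.739 to 0.892. No gene passed in this contrast (0%; 9.12% at an unadjusted p below 0.05, and 27 genes passed with DESeq2). With GC content and length corrected for, the difference was -0.14 for Nf2 and -0.25 for Lats2.

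Within the knockouts, Nf2 was lower at 28 weeks, with 77.9 ± 5.71 CPM against 107 ± 15.8 CPM at 20 weeks (n = 3 each), and the ages did not overlap. The log2 fold change was -0.46 (SE 0.15, unadjusted p = 0.0105) and did not pass adjustment over all genes (adjusted p = 0.429), nor did that of any other gene (0%; 11.2% at an unadjusted p below 0.05, and 40 genes passed with DESeq2). It was -0.34 without knockout library 2 at 20 weeks and -0.16 with GC content and length corrected for. Lats2 averaged 142 ± 38.3 CPM in knockouts at 28 weeks and 199 ± 21.8 CPM at 20 weeks (log2 -0.49, SE 0.26, adjusted p = 0.471). In controls every estimate for age was small. The largest estimate was that of Sav1, with 85.8 ± 4.26 CPM at 28 weeks and 96.8 ± 8.89 CPM at 20 weeks (log2 -0.17, SE 0.13, adjusted p = 1.00). No gene passed in this contrast either (0%; 2.98% at an unadjusted p below 0.05, and 1 gene with DESeq2), and none of the 8 stood below that level. These age contrasts and the change of the knockout effect use the same libraries and are not independent of each other.

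Levels of different genes can be compared on the FPKM scale, which divides counts by gene length, as far as that length is right. The length behind the FPKM values was 11279 bases for Stk3, 3171 for Mob1b and 2612 for Sav1. GENCODE M21 exons cover 6114, 15033 and 5265 bases of these genes, so the order below depends on the lengths used. Over the 12 libraries Mob1a (44.6 ± 4.17 FPKM, mean and SD) and Sav1 (38.9 ± 5.44) were the highest, and Mob1a exceeded Sav1 in 11 of 12 libraries. Lats2 (27.8 ± 6.98) and Stk4 (22.4 ± 2.42) followed, and their order was not stable, with Lats2 higher in 7 of 12. Nf2 was at 17.2 ± 3.02 FPKM. Lats1 (11.8 ± 2.70) and Mob1b (11.0 ± 2.80) were close, with Lats1 higher in 9 of 12 libraries. Stk3 was the lowest at 5.51 ± 1.58 FPKM, below Mob1b in 11 of 12. The more abundant member of each pair was thus Mob1a over Mob1b, Lats2 over Lats1 and Stk4 over Stk3, in every group mean.

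The ratio of paralogs within a library does not depend on that library's scaling. Its size depends on the gene lengths behind the FPKM values, whereas its log2 difference between groups does not. At 28 weeks the FPKM of Lats2 was 2.33, 2.75 and 2.81 times that of Lats1 in knockouts, against 2.31, 1.78 and 1.75 times in controls. The knockout libraries lay above the controls, although knockout library 1 exceeded control library 1 only narrowly. On the log2 scale the ratio was higher by 0.44 in knockouts (two-sided exact permutation p = 0.1, adjusted p = 0.2 over 6 comparisons), where 0.1 is the smallest p that 3 against 3 libraries can give. At 20 weeks the ratio was 2.26, 5.46 and 2.62 in knockouts, against 2.26, 2.20 and 1.41 in controls. Knockout library 1 and control library 1 were all but equal, and knockout library 2, in which GC-poor genes were low, stood far above the rest. The log2 difference was 0.74 (exact permutation p = 0.1, adjusted p = 0.2), and 0.35 without knockout library 2.

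The ratio of Mob1a to Mob1b at 28 weeks was 5.26, 6.07 and 4.66 in knockouts and 4.34, 3.12 and 3.07 in controls. The groups did not overlap, with a log2 difference of 0.61 (exact permutation p = 0.1, adjusted p = 0.2). At 20 weeks it was 3.94, 6.69 and 3.96 in knockouts, against 4.13, 3.03 and 3.38 in controls, a log2 difference of 0.43 (exact permutation p = 0.3, adjusted p = 0.36) that was 0.18 without knockout library 2. Stk3 remained below Stk4 in every library, at 0.452, 0.351 and 0.236 times its FPKM in the 28-week knockouts and 0.164, 0.232 and 0.242 times in controls. The groups overlapped through knockout library 3, and the log2 difference was 0.67 (exact permutation p = 0.2, adjusted p = 0.3). At 20 weeks the difference was 0.30 (exact permutation p = 0.7), and it was 0.61 (0.615) without knockout library 2 and 0.00 (0.0049) without knockout library 3.

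**Figure D4:**
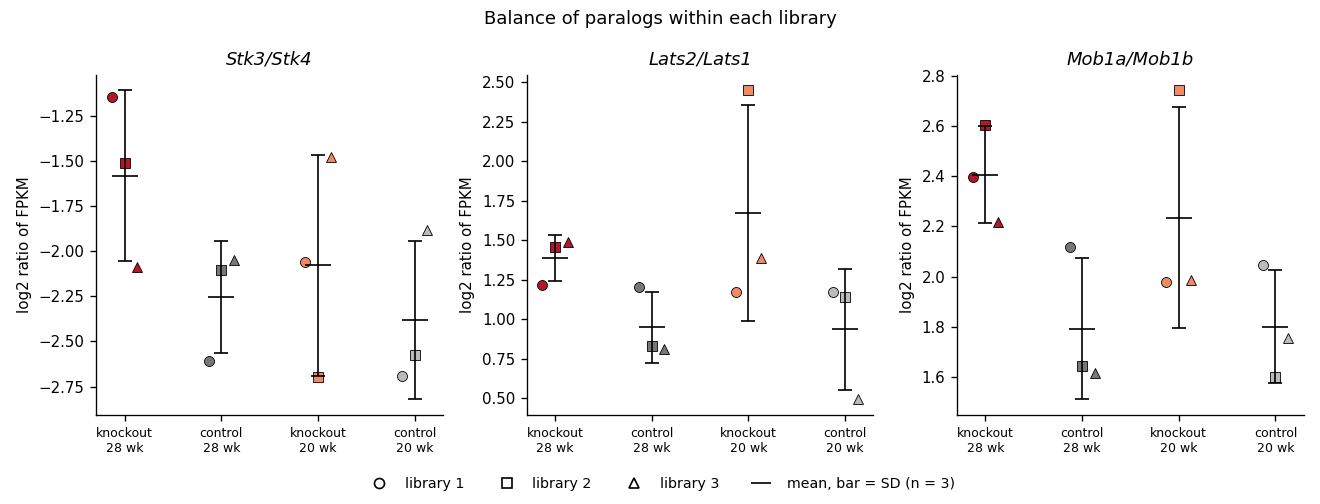
Log2 ratio of the FPKM values of paralogs in each library, for Stk3/Stk4, Lats2/Lats1 and Mob1a/Mob1b, with the 4 groups along the horizontal axis. Points are libraries, the long line is the mean and the bar the SD (n = 3), and the vertical axes differ between panels. Mean Lats2/Lats1 at 28 weeks was 1.39 in knockouts and 0.95 in controls, and knockout library 2 at 20 weeks stands apart in Lats2/Lats1 at 2.45.

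Across the 12 libraries the core genes did not vary as a block. Of the 28 pairs, Lats1 and Mob1b had the highest Pearson correlation of log2 CPM (r = 0.83), followed by Stk4 and Mob1b (r = 0.76), and Stk3 and Nf2 had the lowest (r = -0.79). Lats1 and Lats2 had r = 0.18, and Mob1a and Mob1b r = 0.37. Among 10579 genes, the most alike in pattern were Ubr3 for Lats1 (r = 0.993), Steep1 for Stk3 (0.988), Zbtb4 for Lats2 (0.983) and Abtb2 for Nf2 (0.970). Akap10 was the most alike for Mob1a (0.954), Hoxc8 for Sav1 (0.938), Tcp1 for Stk4 (0.931) and Naa16 for Mob1b (0.923). No core gene was among the 3 most alike of another, which with 10579 genes to draw from says little about whether they vary together. These correlations describe 12 libraries that share genotype, age and the GC and length trends above.

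Around the core, 6 further groups of Hippo genes were counted in the same fits. These lists were chosen with earlier results of these data known, so a share set beside that of all genes is a description and not a test. Among scaffolds and activators of the core, 6 of 12 fell in knockouts at 28 weeks (11.9% of all genes did) and none rose (9.33%), with a median log2 fold change of -0.64, against 0.07 over all genes and -0.10 over the core. Wwc1, which encodes KIBRA, a partner of merlin, fell to 72.5 ± 23.1 CPM in knockouts, against 443 ± 9.04 CPM in controls (log2 -2.61, SE 0.25, edgeR adjusted p = 0.00324). Amot, the angiomotin that binds YAP and activates LATS, fell to 59.4 ± 15.98 CPM in knockouts, against 198 ± 18.0 CPM in controls (log2 -1.74, adjusted p = 0.00539). The polarity gene Scrib (-1.01, adjusted p = 0.00489) also fell, as did Amotl1 (-1.12) and Rassf5 (-1.16). Scrib was at -0.54 with GC and length offsets. The call of Rassf5 at 28 weeks ended without any control library or without knockout library 2 (adjusted p of 0.101 to 0.125), and with control libraries 2 and 3 summed (0.102). At 20 weeks 1 of 12 fell (5.13% of all genes), Rassf5 (log2 -1.15, adjusted p = 0.0448), a call that ended when any library other than knockout 1 was left out (adjusted p of 0.0838 to 0.119). The same fit had Wwc1 at -1.04 (adjusted p = 0.194) and Amot at -0.77 (adjusted p = 0.178). The smooth muscle and leukocyte marker sums given above were higher in the same knockouts, and those of the simple epithelial and the distal tubule and collecting duct markers were lower, apart from knockout library 1 at 28 weeks. At 20 weeks the leukocyte sums overlapped. A sum follows its most abundant genes, and single markers did not all go with it. In knockout library 1 at 28 weeks Cdh1 was at 18.9 CPM, against 509 to 805 CPM in controls. Krt18 was at 213 CPM there, against 714 to 1103 CPM in controls. Of 10 simple epithelial markers at 28 weeks, 9 had lower estimates in knockouts. Of these 10, 4 fell (11.9% of all genes) and 0 rose (9.33%). Of 7 leukocyte markers tested at 20 weeks, 4 had lower estimates in knockouts (median log2 fold change -0.76), and none passed. Of 10 smooth muscle, pericyte and mesangial markers at 28 weeks, 5 rose and 1 fell (9.33% and 11.9% of all genes). The part of these cell types in these values and in those below was not tested.

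Of 13 inhibitors of the core tested at 28 weeks, 2 rose and 1 fell, against 21.2% of all genes called at that age and 9.92% at 20 weeks. Strn3 (log2 0.60, adjusted p = 0.0226) and Sike1 (0.45, adjusted p = 0.0259), which belong to the STRIPAK phosphatase complex that acts on the MST kinases, rose. Ajuba, a LIM protein that binds LATS, fell to 144 ± 2.24 CPM in knockouts, against 288 ± 16.3 CPM in controls (log2 -1.002, adjusted p = 0.00351). The call of Strn3 ended when any library other than knockout 3 was left out (adjusted p of 0.0538 to 0.0966), and that of Sike1 without control library 2 or 3 or knockout library 2 or 3 (0.0731 to 0.126). Sike1 also no longer passed with GC and length offsets (0.32, adjusted p = 0.128), with control libraries 2 and 3 summed (0.113), in the 12-library model (0.0902) or without the filter on low counts (0.0575). None of the 13 passed at 20 weeks. Of 10 upstream kinases, 1 fell at 28 weeks, the low-abundance Tnik (1.37 ± 0.436 CPM in knockouts and 5.40 ± 1.05 CPM in controls, log2 -1.98, adjusted p = 0.00997), and none passed at 20 weeks. Its estimate was -0.28 with limma on log2(FPKM + 1), a scale that understates low genes. Of 11 related kinases and Mob proteins, Mob2 rose (0.71, adjusted p = 0.0171) and Slk fell (-0.63, adjusted p = 0.0430) at 28 weeks, and none passed at 20 weeks. Mob2 no longer passed without control library 2 or 3 (adjusted p of 0.0728 and 0.0850), and Slk without any library other than knockout 3 (0.0816 to 0.145). At 28 weeks the shares called among the 13 inhibitors, 10 upstream kinases and 11 related kinases lie near or below the 21.2% of all genes.

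Downstream of the core, Yap1 was at 176 ± 47.9 CPM in knockouts and 151 ± 35.1 CPM in controls at 28 weeks (log2 0.23, adjusted p = 0.569), and at 198 ± 12.0 against 158 ± 13.1 CPM at 20 weeks (0.32, adjusted p = 0.229). Wwtr1, which encodes TAZ, was at 217 ± 35.9 CPM in knockouts and 173 ± 28.0 CPM in controls at 28 weeks (0.32, adjusted p = 0.261), and at 248 ± 27.7 against 193 ± 15.6 CPM at 20 weeks (0.36, adjusted p = 0.203). Of 8 nuclear effectors 1 fell at 28 weeks, Tead4 (log2 -1.76, adjusted p = 0.00426), and none passed at 20 weeks. Of 21 YAP/TAZ targets, Ccdc80 rose (1.33, adjusted p = 0.0165) and Myof fell (-1.31, adjusted p = 0.00460) at 28 weeks, and the median was 0.02. The counts in the 8 effectors and 21 targets at that age lie below the 21.2% of all genes. At 20 weeks 5 rose, Igfbp3 (1.90), Tgfb2 (1.11), Crim1 (1.20), Ccdc80 (1.40) and Ccn2 (0.78), 2 fell, Ankrd1 and F3, and the median was 0.47, against 0.01 over all genes, of which 4.79% rose and 5.13% fell. Ccdc80 no longer passed at 28 weeks without control library 2 or 3 (adjusted p of 0.0688 and 0.0708). At 20 weeks the calls of Igfbp3 and Tgfb2 held under every alternative setting. The other calls at that age ended when certain libraries were left out, although the estimates kept their sign. That of Ccn2 ended without control 2 or 3 or knockout 2 or 3 (0.0558 to 0.0779), that of Crim1 without control 2 or knockout 3 (0.0652 and 0.0583) and that of Ccdc80 without control 1 or knockout 2 or 3 (0.0537 to 0.102). The call of Ankrd1 ended without any library other than control 3 (0.0638 to 0.190) and that of F3 without control 1 or 2 or knockout 2 or 3 (0.0773 to 0.124). Ccn1 was at -0.09 at 28 weeks (adjusted p = 0.878) and 0.38 at 20 weeks (adjusted p = 0.431).

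**Figure D5:**
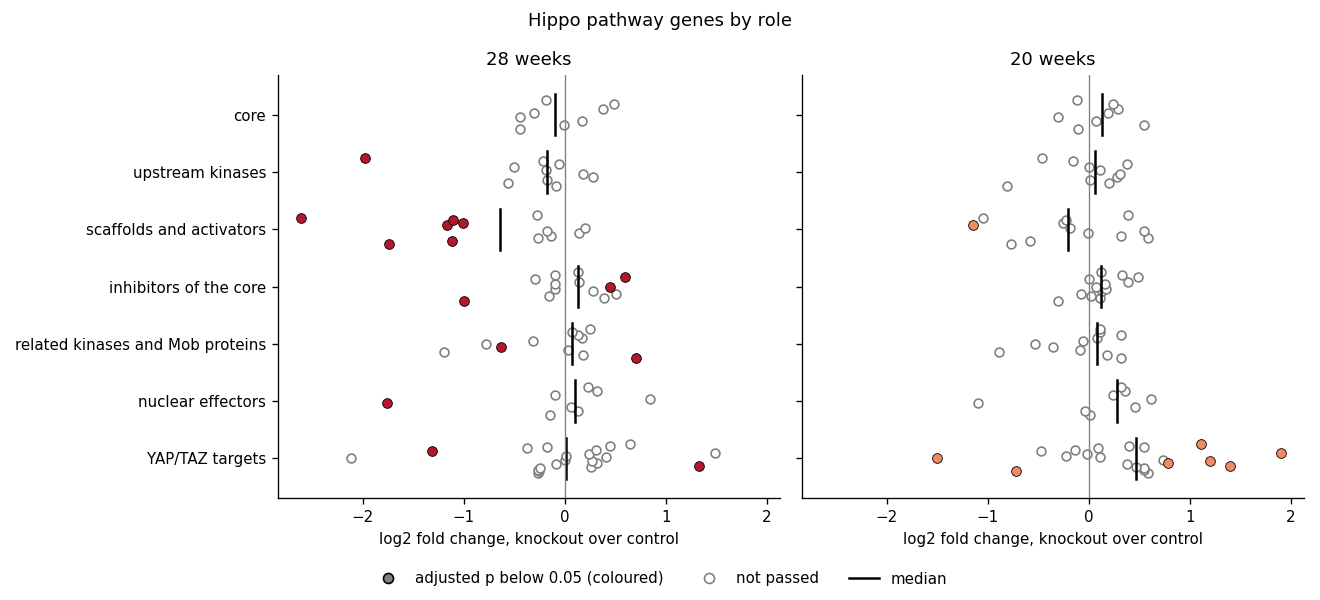
Log2 fold change of knockout over control podocytes for single genes of the Hippo pathway, grouped by role, at 28 weeks (left) and 20 weeks (right). Filled points passed at an adjusted p below 0.05, open points did not, and the bar is the median of the group. None of the 8 core genes passed at either age, whereas 6 of 12 scaffolds and activators fell at 28 weeks. All lists were chosen with earlier results of these data known.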

How the data were processed

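RNA sequencing gave 4 groups of 3 libraries. The authors deposited 1 table of raw counts per age, by gene symbol, and FPKM values that divide those counts by gene length and column total, per the file headers and the values. The genome build was GRCm38 (mm10), per the submitters' processing notes and the sources used here do not give the aligner, counter, strand setting or annotation. Trends of the deposited counts with GC content and length differ between libraries, and their part in the values of these genes was not tested.

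Each age was fitted alone in R 4.3.3 with edgeR 4.0.16: TMM scaling, the filterByExpr filter and a quasi-likelihood F test on genotype. P-values were adjusted by Benjamini-Hochberg across every gene tested, with 0.05 as the threshold, and every adjusted p is from this test unless another is named. CPM values use TMM-scaled library sizes, and ± is the SD over 3 libraries. Contrasts between ages came from 1 model of 12 libraries over 15662 genes. Paralog ratios were compared by a two-sided exact permutation test. GC content was available for 14536 of 15662 genes (92.8%), from the longest GENCODE M21 transcript. Alternatives used DESeq2 1.42.0, limma 3.58.1 on log2 FPKM, other scalings and filters, and each library left out. Intervals cover the spread between libraries, and counts cannot show PCR copies.

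The 8 genes and all other gene lists were chosen with earlier results of these data known. Named genes are all 8 core genes, Nsd2, up to 4 genes that passed with the smallest p in each other list and age, and Yap1, Wwtr1, Ccn1 and Ccn2; for likeness, the genes with the highest r at a mean of at least 5 CPM. Amotl1, Rassf5 at 28 weeks, Ankrd1 and F3 are named beyond this rule to complete counts. A gene that this rule takes is not reported here.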

Additional observations from a re-analysis of the deposited data

How the results depend on the processing

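No core gene passed under most settings. At 28 weeks 1 of the 8 passed with DESeq2 or upper-quartile scaling (Sav1), and between 0 and 1 with a library left out (Sav1 without knockout library 1, Lats1 without knockout library 3). Genes passing at 28 weeks numbered 3183, between 1266 and 3374 with a library left out, and 1299 with control libraries 2 and 3 summed. At 20 weeks there were 1473, against 2431 with DESeq2 and between 517 and 2023 with a library left out. The change of the knockout effect gave 27 genes with DESeq2, age in knockouts 40 with DESeq2 and between 0 and 4 with a library left out, and age in controls 1 with DESeq2. Over the 2 genotype comparisons the single core estimates kept their side of the threshold and direction in 126 settings at 28 weeks and 123 at 20 weeks, passed in 4, and changed sign in 6 and 5.

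The sign changes concern estimates smaller than their SE. The largest of these were Stk3 at 20 weeks (0.24) and Yap1 at 28 weeks (0.23). Lats2 at 28 weeks (-0.01) was 0.01 (0.0095) with DESeq2 or RLE factors, 0.04 (0.036) with upper-quartile scaling, 0.24 with GC and length offsets, and between -0.25 and 0.24 with a library left out. Mob1a at 20 weeks was -0.03 (-0.0316 and -0.0308) with limma on FPKM and between -0.01 (-0.0102) and 0.16 with a library left out. With a library left out, Lats1 at 20 weeks was between -0.27 and 0.16, Stk3 at 20 weeks between -0.04 (-0.0394) and 0.51, Ccn1 at 28 weeks between -0.37 and 0.24 and Yap1 at 28 weeks between -0.05 (-0.0508) and 0.43. The causes were not tested.

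Beside the settings given in the report, summing control libraries 2 and 3 ended the 28-week calls of Ccdc80, Mob2, Strn3 and Slk (adjusted p of 0.0696 to 0.105). The 12-library model ended those of Strn3 and Slk at 28 weeks (0.0908 and 0.115) and of Ankrd1, F3, Ccn2 and Crim1 at 20 weeks (0.0687 to 0.170). Slk also no longer passed without the filter on low counts (0.050002), Ankrd1 without it or with RLE factors (0.0579 and 0.0515), and Nsd2 at 20 weeks with a filter of 1 CPM in 3 libraries (0.0562).

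Replicate numbers recur in each group, and whether they pair the libraries is not known. Correlations of the deviations of same-numbered knockout and control libraries were -0.553, -0.087 and -0.452 at 28 weeks, and -0.093, 0.302 and -0.169 at 20 weeks. These deviations also hold the GC and length trends of each library, so they cannot show whether same-numbered libraries belong together. With the replicate block, 332 genes passed at 28 weeks and none of them was a core gene; of the calls named in the text it ended those of Nsd2, Ajuba, Amotl1, Ccdc80, Mob2, Myof, Rassf5, Scrib, Sike1, Slk, Strn3, Tead4 and Tnik at 28 weeks (adjusted p of 0.0526 to 0.169) and of Rassf5 and Ankrd1 at 20 weeks (0.0733 and 0.0826). Among the knockout libraries, only library 2 at 20 weeks correlated best with the control of its own number (0.302). With 3 libraries a group, the printed intervals are wide, and effects of any size inside them are compatible with the data.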
